A study of Mus musculus with 6 samples.

Results

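The Hedgehog pathway was examined through 9 genes of the count table, out of 22295 genes in all: the ligand gene *Shh*, the receptor gene *Ptch1*, the co-receptor gene *Boc*, the ligand-binding inhibitor gene *Hhip*, the transducer gene *Smo*, the negative regulator gene *Sufu*, and the transcription factor genes *Gli1*, *Gli2* and *Gli3*. They were chosen by symbol, and all 9 had counts in all 6 libraries. The libraries came from GFP-positive keratinocytes that had been sorted by FACS from the epidermis of K19 *Itga3* KO mice (3 libraries) and K19 *Itga3* WT mice (3 libraries), all on the FVB/N background. Mice of both groups carried the K19(Cre-ERT) transgene, a tamoxifen-inducible Cre driven by the K19 promoter of the hair bulge (HB), and the mTmG reporter, which switches recombined cells and their progeny to GFP. The KO mice additionally carried Itga3 fl/fl, the floxed alleles of the integrin α3 subunit gene. According to the labels, tamoxifen at 10 mg/ml was injected over 4 days at 6 weeks of age, and 1 dose of 30 µg DMBA, a mutagen, was applied at 7 weeks, followed by applications of 12.34 µg TPA, a tumor promoter, for 2 weeks, for both groups alike. The paper's methods give an earlier start and a lower concentration of the injections, with topical tamoxifen added. The sex of the mice was not given in the sources used here, untreated mice were not analysed here, and a K19-driven Cre does not recombine in every HB.

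In Hedgehog signaling a secreted ligand binds Patched, which otherwise keeps the membrane protein Smoothened inactive. Released Smoothened acts at the primary cilium on the complex of Sufu with the Gli proteins, so that Gli2 and Gli3 are no longer processed to repressors and activate transcription. *Gli1*, *Ptch1* and *Hhip* are themselves transcribed in response, which makes their mRNA the usual readout of the pathway, and *Ptch1* and *Hhip* feed back negatively by binding ligand. In hair follicles (HFs) the pathway is best known for driving the growth of the hair germ at the start of anagen and, when mutated into constant activity, for basal cell carcinoma.

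None of the 9 genes passed the test between genotypes in edgeR, limma-voom or DESeq2. The 3 readout genes *Gli1*, *Ptch1* and *Hhip* had fitted levels in KO of 1.45 to 1.66 times those in WT, with wide intervals, *Boc* and *Gli3* had lower mean levels, and *Smo* and *Sufu* differed little. Of the other genes of the pathway described here, *Scube2*, whose product helps to release the ligand from the producing cell, was lower in KO libraries, and *Hsd11b2*, a reported target, was higher. Both passed the test in edgeR and DESeq2 but not in limma-voom, nor in edgeR with some single libraries left out. Levels are given as CPM (counts scaled to a library of 1000000, after TMM factors that correct for library composition), and differences as log2 fold changes of KO against WT with the standard error (SE) from edgeR's quasi-likelihood test. The adjusted p was corrected over the 21681 genes with a count, by Benjamini-Hochberg, and a gene was called at an adjusted p below 0.05. Of all genes tested 0.673% were called, so that 0 of 9 does not set these genes apart. At an unadjusted p below 0.05 were 4 of the 9 (*Ptch1*, *Gli1*, *Gli3* and *Boc*), beside 11.5% of all genes tested. The KO and WT libraries did not overlap for 4 of the 9 (*Ptch1*, *Gli3*, *Sufu* and *Boc*), beside 16.3% of all genes tested.

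Libraries held 20578309 to 23670507 counts on genes, and 3 counts, taken as the floor of detection, were worth 0.128 to 0.145 CPM. The columns of the table carry the genotype and running numbers that match no sample name of the labels, so the libraries of each genotype are named a to c by their place in the table, which implies no pairing, and values are given in that sequence. The targeted gene *Itga3* stood at 252 to 371 CPM in WT and 124 to 134 CPM in KO libraries (log2 fold change −1.20, SE 0.13, adjusted p = 0.00283 from edgeR). With single libraries left out, its call in edgeR was lost without WT c (−1.27, adjusted p = 0.130) and without KO a (−1.21, adjusted p = 0.0934). As to identity, 6 keratinocyte marker genes summed to between 22744 and 34137 CPM per library and 8 HB marker genes to between 11533 and 18371 CPM.

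Promoter sequence is shown for the readout genes that RefSeq's table covers, since the Gli proteins act on *Ptch1* and *Hhip* through DNA. The table (GRCm38.p6) matched 6 of the 9 genes. Those not matched were *Shh*, *Gli1* and *Boc*. The lines give the 250 bases before the annotated start, 5′ to 3′ on the gene's strand. For *Hhip* this is chr8:80058009-80058258, minus strand, and for *Ptch1* it is chr13:63565736-63565985, minus strand. Capitals mark the 9 letters closest to the Gli consensus GACCACCCA, at 2 mismatches and starting 160 bases before the start. *Ptch1* has no capitals because no match within 2 mismatches was found, and its RefSeq start lies upstream of the gene's span in the count table.
Hhip: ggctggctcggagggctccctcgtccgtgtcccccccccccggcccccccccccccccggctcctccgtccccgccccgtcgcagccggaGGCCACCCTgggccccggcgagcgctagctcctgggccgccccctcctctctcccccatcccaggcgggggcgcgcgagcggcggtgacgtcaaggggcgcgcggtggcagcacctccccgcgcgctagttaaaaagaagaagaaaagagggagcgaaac
Ptch1: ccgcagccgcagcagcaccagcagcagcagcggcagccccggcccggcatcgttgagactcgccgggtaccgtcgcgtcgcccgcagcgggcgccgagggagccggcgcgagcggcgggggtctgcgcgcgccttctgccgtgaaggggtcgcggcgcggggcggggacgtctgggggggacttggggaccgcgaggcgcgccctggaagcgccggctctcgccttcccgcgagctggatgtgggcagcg
An exact GACCACCCA on either strand was found in the 300-base window (250 bases before to 50 after the start) of 0 of the 6 matched genes and of 0.253% of the 32851 promoters in the table. With up to 2 mismatches it was found for *Hhip*, *Smo* and *Gli2* and in 58.3% of all promoters, so a match this loose is common. Gli sites further from the start lie outside this window and were not searched.

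**Figure D1:**
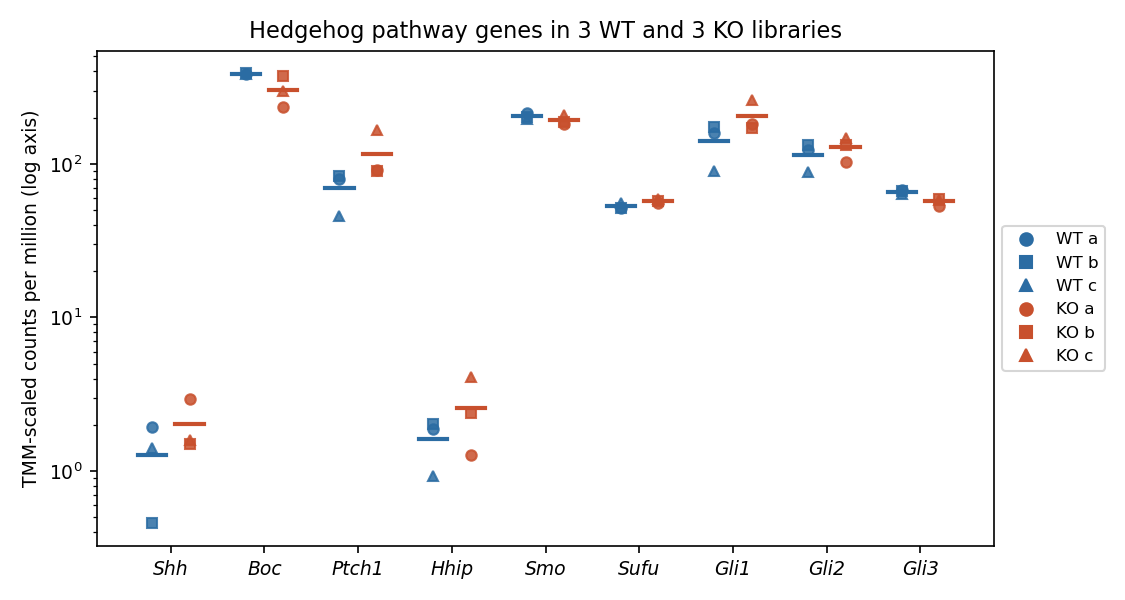
Level of each of the 9 genes in every library (y axis, TMM-scaled CPM on a log axis), with WT in blue on the left and KO in orange on the right of each gene, a marker shape per library and a bar at the group mean (n = 3). *Shh* and *Hhip* lie between 0.458 and 4.11 CPM and the 7 other genes between 45.8 and 389 CPM.

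Ligands were scarce in the sorted cells. *Shh* (ENSMUSG00000002633, chromosome 5, 28456815 to 28467101) had 42, 10 and 32 counts in the WT libraries and 69, 32 and 33 counts in the KO libraries. This corresponds to 1.93, 0.458 and 1.41 CPM in WT and 2.93, 1.50 and 1.60 CPM in KO. WT b was the lowest library and KO a the highest, and the groups overlapped. An exact Poisson interval (95%, counting error only) runs from 4.80 to 18.4 counts for WT b and from 53.7 to 87.3 for KO a. *Shh* had a log2 fold change of 0.67 (SE 0.44, 95% interval −0.30 to 1.64, adjusted p = 0.637 from edgeR). With single libraries left out it ranged from 0.28 (without WT b) and 0.29 (without KO a) to 1.11 (without WT a), and it was not called in any of these fits. The other ligand genes were treated likewise. *Ihh* had 4 or 5 counts in each WT library and 1 to 3 in each KO library, at or near the floor. *Dhh*, best known from Schwann cells and testis, had 25, 73 and 43 counts in WT and 58, 43 and 74 in KO (log2 fold change 0.33, SE 0.37, adjusted p = 0.716 from edgeR). A list of 5 Schwann cell markers summed to between 131 and 198 CPM in WT and between 155 and 187 CPM in KO, with 0 of the 5 at or under the floor in all libraries. *Erbb3*, which keratinocytes also express, made up most of this sum, and the part of the list in the level of *Dhh* was not tested. In bulk samples such as these, fewer cells of a type and less RNA per cell cannot be told apart.

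Of the genes that prepare and release the ligand, 5 of the 8 listed were tested, and *Scube2* (chromosome 7) was called. It stood at 66.2, 109 and 65.7 CPM in WT and 29.4, 46.2 and 34.6 CPM in KO libraries. Every KO library lay below every WT library. *Scube2* fell by 1.13 on the log2 scale (SE 0.20, adjusted p = 0.0348 from edgeR). *Scube3*, a relative of *Scube2*, stood at 3.39 to 5.46 CPM in WT and 8.21 to 9.29 CPM in KO, without overlap and with KO higher, but was not called (0.96, SE 0.20, adjusted p = 0.0553 from edgeR, but 0.00161 in DESeq2 and 0.0148 in edgeR without WT a). *Hhat*, which attaches palmitate to the ligand, had 7.24 to 9.32 CPM in WT and 6.14 to 6.29 CPM in KO and was not called (−0.45, SE 0.16, adjusted p = 0.296 from edgeR). The call for *Scube2* was lost in limma-voom (adjusted p = 0.127) and with a minimum of 10 counts per library (adjusted p = 0.133). It was also lost without WT c, without KO a or without KO c, with adjusted p of 0.350, 0.352 and 0.156, at log2 fold changes between −1.25 and −0.99.

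*Ptch1* (ENSMUSG00000021466, chromosome 13, 63511533 to 63565520), the receptor gene and a target, stood at 79.4, 83.3 and 45.8 CPM in the WT libraries. In the KO libraries it stood at 91.3, 89.6 and 165 CPM. All 3 KO libraries lay above all 3 WT libraries, but KO a and KO b lay close to WT a and WT b, and WT c and KO c stood apart at the bottom and at the top. This gave a log2 fold change of 0.73 (SE 0.25, 95% interval 0.19 to 1.28), or 1.66-fold, with an adjusted p of 0.255 from edgeR. The exact two-sided permutation test gave p = 0.1, the smallest that 3 against 3 libraries allow. The difference was 0.50 without WT c and 0.38 without KO c.

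The co-receptors Boc, Cdon and Gas1 hold the ligand at the cell surface and present it to Patched. *Boc* (ENSMUSG00000022687, chromosome 16, 44485045 to 44558897) was the most abundant of the 9 genes. It had 386, 389 and 382 CPM in the WT libraries and 235, 371 and 300 CPM in the KO libraries. The WT libraries lay close together, whereas the KO libraries spread widely, with KO b just below the WT range. The log2 fold change was −0.35 (SE 0.14, 95% interval −0.66 to −0.05, adjusted p = 0.342 from edgeR). It was −0.20 without KO a and −0.52 without KO b. *Cdon* had 186, 120 and 171 CPM in WT and 89.9, 132 and 99.9 CPM in KO, overlapping between groups (−0.57, SE 0.17, adjusted p = 0.176 from edgeR). *Gas1* was high in both groups, at 503 to 545 CPM in WT and 447 to 533 CPM in KO (−0.09, SE 0.10, adjusted p = 0.728 from edgeR). Of the glypicans, which also bind ligand, *Gpc3* had a log2 fold change of −0.52, *Gpc4* of 0.01 and *Gpc6* of 0.15, with adjusted p between 0.556 and 0.999, and *Lrp2* had no count. Without WT b *Gpc3* was at −0.24, and without WT a at −0.72. Fibroblasts express *Boc*, *Cdon* and *Gas1* as well. A list of 6 tested fibroblast markers summed to between 116 and 178 CPM in WT and between 48.1 and 80.3 CPM in KO, without overlap. Of these *Col1a1* and *Col1a2* made up most of the sum, while *Lum* was at or under the floor in all libraries and *Col3a1* had no count in the WT libraries. *Dcn* was at 0.573 to 1.69 CPM in WT and 1.55 to 5.44 CPM in KO. *Pdgfra* was at 0.688 to 1.33 CPM in WT and 0.339 to 0.563 CPM in KO, without overlap, on 7 to 29 counts per library. The part of this list in the differences of *Boc* and *Cdon* was not tested.

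*Hhip* (ENSMUSG00000064325, chromosome 8, 79966115 to 80058006), whose product traps ligand at the membrane, was measured on few counts, 41, 44 and 21 in WT and 30, 51 and 85 in KO libraries. Its levels were 1.88, 2.02 and 0.926 CPM in WT and 1.28, 2.39 and 4.11 CPM in KO. WT c was lowest and KO c highest, KO a lay below 2 of the WT libraries, and the groups overlapped. *Hhip* had a log2 fold change of 0.68 (SE 0.42, 95% interval −0.22 to 1.59, adjusted p = 0.588 from edgeR), and without KO c it was 0.19.

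*Smo* (ENSMUSG00000001761, chromosome 6, 29735694 to 29761365) encodes the transducer that Patched holds back. It had 214, 200 and 196 CPM in WT and 182, 188 and 208 CPM in KO libraries. The groups overlapped and no library stood apart, the highest being 1.18 times the lowest. The log2 fold change was −0.08 (SE 0.09, adjusted p = 0.746 from edgeR), with a 95% interval of −0.28 to 0.12, or 0.826- to 1.09-fold. *Sufu* (ENSMUSG00000025231, chromosome 19, 46396896 to 46488804), which restrains the Gli proteins in the cytoplasm, had 51.4, 51.5 and 55.5 CPM in WT and 55.6, 57.5 and 58.7 CPM in KO. The groups did not overlap, though WT c and KO a were nearly equal. The log2 fold change was 0.12 (SE 0.09, 95% interval −0.08 to 0.31, adjusted p = 0.671 from edgeR).

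The Gli transcription factors carry the signal to DNA. *Gli1* (ENSMUSG00000025407, chromosome 10, 127329889 to 127341589), an activator and the most widely used readout, had 158, 173 and 89.7 CPM in the WT libraries and 181, 171 and 259 CPM in the KO libraries. WT c was far below the other WT libraries and KO c far above the other KO libraries, and KO b lay just below WT b. *Gli1* had a log2 fold change of 0.54 (SE 0.22, 95% interval 0.06 to 1.01, adjusted p = 0.367 from edgeR), or 1.45-fold. It was 0.30 without WT c and 0.32 without KO c. *Gli2* (ENSMUSG00000048402, chromosome 1, 118834132 to 119053619), the main activator upstream of *Gli1*, had 123, 133 and 88.0 CPM in WT and 102, 133 and 148 CPM in KO, overlapping between groups (0.16, SE 0.16, 95% interval −0.19 to 0.51, adjusted p = 0.682 from edgeR). *Gli3* (ENSMUSG00000021318, chromosome 13, 15463235 to 15730026), which acts mostly as a repressor, had 67.6, 66.5 and 63.8 CPM in WT and 53.3, 59.4 and 58.1 CPM in KO. Its groups did not overlap and its libraries were close within a genotype. Its difference was small and was not called (−0.21, SE 0.09, 95% interval −0.41 to −0.02, adjusted p = 0.384 from edgeR).

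**Figure D2:**
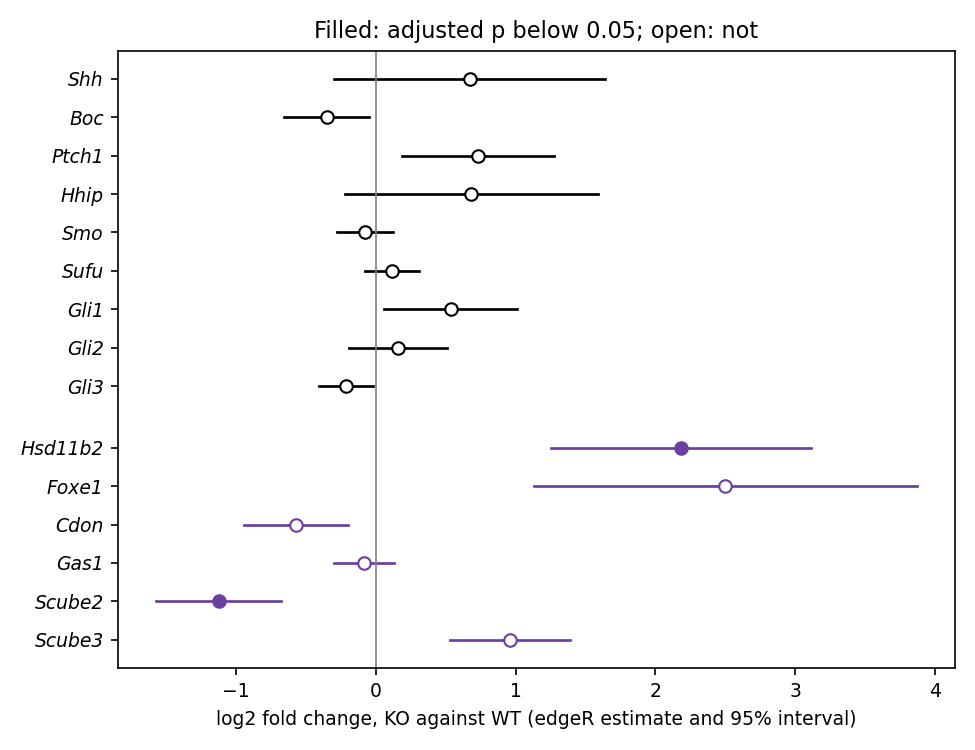
Log2 fold change of KO against WT (x axis) for the 9 genes (black) and 6 further pathway or target genes (purple), with the 95% interval as a line, a filled point for an adjusted p below 0.05 and an open point otherwise (edgeR, n = 3 per group). All 9 points of the first block are open, and *Hsd11b2* and *Scube2* are filled.

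Because longer transcripts collect more counts, levels of different genes were compared as CPM per kilobase of exon. In WT libraries the order was *Boc* (86.6 ± 0.698, SD, n = 3), *Smo* (36.2 ± 1.75), *Gli1* (28.1 ± 8.93), *Gli2* (16.7 ± 3.42), *Gli3* (6.88 ± 0.201), *Sufu* (6.86 ± 0.307), *Ptch1* (4.90 ± 1.46), *Shh* (0.444 ± 0.262) and *Hhip* (0.177 ± 0.0655). Among neighbours in this order, the ranges over libraries overlapped for *Gli1* with *Gli2*, *Gli3* with *Sufu*, and *Shh* with *Hhip*. In KO libraries the order was *Boc* (67.8 ± 15.2), *Gli1* (40.8 ± 9.66), *Smo* (34.3 ± 2.39), *Gli2* (18.6 ± 3.40), *Ptch1* (8.13 ± 3.04), *Sufu* (7.45 ± 0.198), *Gli3* (5.94 ± 0.336), *Shh* (0.706 ± 0.281) and *Hhip* (0.286 ± 0.157). There the ranges of *Gli1* with *Smo* and of *Ptch1* with *Sufu* overlapped. By mean CPM over all 6 libraries, not scaled by exon length, 7 of the 9 genes stood at percentile 79.6 or above. *Shh* and *Hhip* stood at percentiles 43.9 and 45.2. These percentiles are among all genes with a count above 0 in any library.

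The readout genes were extreme in the same libraries. *Gli1*, *Ptch1*, *Hhip* and *Gli2* were each lowest in WT c and highest in KO c, as were 5 of the 20 further targets tested (*Hsd11b2*, *Foxe1*, *Bcl2*, *Foxc2* and *Sox9*), whereas *Mycn* and *Ccnd1* were lowest in WT b. Over all genes tested, 635 of 21681 (2.93%) had this pair of extremes. From WT c to KO c the CPM spanned 2.89-fold for *Gli1*, 3.61-fold for *Ptch1* and 4.44-fold for *Hhip*, against 1.68-fold for *Gli2*. Correlations were taken on log2 CPM. Over the 6 libraries *Gli1* and *Ptch1* had Pearson's r = 0.980 and Spearman's rho = 0.943 (permutation p = 0.0139 and 0.0167, exact). Adjusted over the 36 pairs of the 9 genes, these were 0.167 and 0.2. Without WT c and KO c r was 0.839, and with each genotype centred on its mean it was 0.968. For *Ptch1* and *Hhip* r was 0.894 but −0.307 without WT c and KO c. The same turn of sign was seen for *Gli1* with *Hhip* (0.862 to −0.459), *Gli1* with *Gli2* (0.835 to −0.422) and *Ptch1* with *Gli2* (0.815 to −0.412). The libraries left out were those farthest from the median of the pair's first gene, which narrows that gene's spread by construction. With each genotype centred on its mean, r for these pairs was 0.892, 0.833, 0.858 and 0.850, in the same sequence. *Gli2* and *Hhip* had r = 0.959 and rho = 1.00 (exact permutation p adjusted over the 36 pairs 0.05 and 0.1), and r = 0.936 without WT c and KO a. *Gli3* and *Boc*, both lower in KO on average, had r = 0.906 and rho = 0.943 (adjusted 0.05 and 0.2), and r = 0.780 without WT a and KO a. No pair had an adjusted p below 0.05. With both WT c and KO c left out, an alternative chosen after seeing the data that shrinks the difference by construction, the log2 fold change was 0.08 for *Gli1*, 0.15 for *Ptch1*, −0.09 for *Hhip* and −0.12 for *Gli2*.

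**Figure D3:**
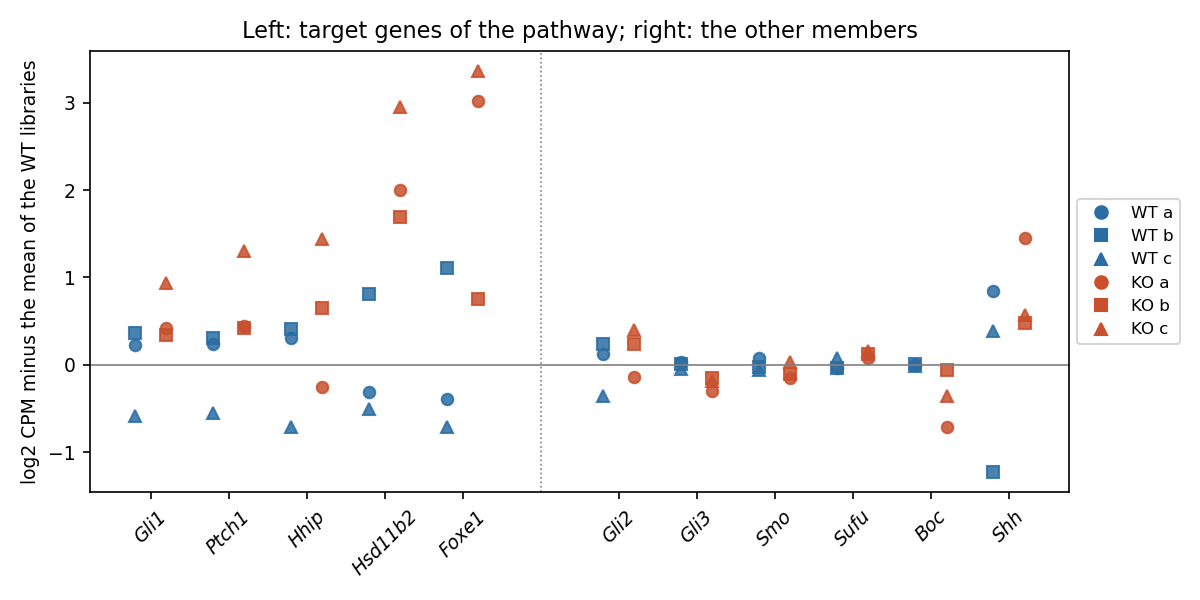
Log2 CPM of each library minus the mean of the WT libraries (y axis), for *Gli1*, *Ptch1*, *Hhip* and 2 further target genes (left of the dotted line) and for the other 6 of the 9 genes (right), with WT in blue, KO in orange and a marker shape per library. WT c is the lowest and KO c the highest point for each of the 5 genes on the left, whereas *Smo*, *Sufu* and *Gli3* stay within a narrow band. The 2 further targets shown, *Hsd11b2* and *Foxe1*, are among the 5 of 20 tested targets with this pattern. *Mycn* and *Ccnd1*, lowest in WT b, are not shown.

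Cell types and states in which the pathway is commonly active were set beside the readouts. A list of 11 tested genes of the hair germ and matrix summed to between 432 and 510 CPM in WT and between 467 and 500 CPM in KO, with overlap, and *Cdh3* made up most of the sum. Of the 11 genes 7 had a log2 fold change above 0 and 4 below, with a median of 0.06. The groups did not overlap for 2 of the 11, beside 16.3% of all genes tested. *Dlx3* stood at 17.5 to 27.3 CPM in WT and 30.9 to 32.4 CPM in KO (0.46, SE 0.15, adjusted p = 0.223 from edgeR). *Bmp4* stood at 0.183 to 0.265 and 0.281 to 0.580 CPM, on only 4 to 12 counts per library. The part of these genes in the readouts was not tested. The 8 proliferation markers summed to 406, 883 and 1061 CPM in the WT libraries and to 687, 647 and 935 CPM in the KO libraries. Their sum was highest in WT c, where *Gli1*, *Ptch1* and *Hhip* were lowest. Among the KO libraries it was highest in KO c, where *Gli1*, *Ptch1* and *Hhip* were highest. The part of proliferation in the readouts was not tested. Dermal papilla cells, the mesenchymal cells at the base of the HF, respond to Hedgehog ligand. Of 8 dermal papilla markers 6 were at or under the floor in all libraries, among them *Sox2*, *Corin*, *Rspo3* and *Alx4*. The sum of the list was 4.21 to 7.39 CPM in WT and 2.85 to 5.96 CPM in KO. *Crabp1* made up most of it, at 3.89 to 6.79 CPM in WT and 2.04 to 5.06 CPM in KO. *Prom1* was higher in KO without overlap, at 0.0916 to 0.397 CPM in WT and 0.532 to 0.610 CPM in KO, on 2 to 14 counts per library. Among HB markers *Cd34* fell in KO by 0.72 on the log2 scale (SE 0.14, adjusted p = 0.0462 from edgeR, but 0.119 in limma-voom and lost without WT b, WT c, KO a or KO c), and the sums of the HB list, mostly *Krt15*, overlapped. Of the 8 HB markers 6 were below 0, among them *Lgr5* (−0.47, SE 0.17, adjusted p = 0.283 from edgeR). Sebaceous markers, 5 genes with 0 at or under the floor in all libraries, summed to between 10.3 and 39.8 CPM in WT and between 14.0 and 37.1 CPM in KO. Lists for endothelial cells (5 genes, 5.56 to 8.67 CPM in WT and 3.70 to 4.97 in KO, no overlap, 2 at or under the floor), melanocytes (5 genes, 6.33 to 13.4 and 10.3 to 11.7), Merkel cells (2 tested genes, 2.98 to 3.80 and 3.48 to 3.95) and immune cells (5 genes, 5.63 to 10.4 and 5.99 to 9.19, 1 at or under the floor) were low in all libraries. Of the 5 endothelial genes 3 were below 0 and 2 above. *Tek* was lower in KO (2.16 to 5.23 CPM in WT and 1.06 to 1.55 in KO). *Pecam1* was higher in KO, also without overlap (0.964 to 1.41 and 1.64 to 1.87 CPM).

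Beyond the 9 genes, 47 of the 56 listed symbols of the pathway were tested, and in edgeR 1 was lower (*Scube2*, beside 0.212% of all genes tested) and 0 were higher (beside 0.461%), with 4 at an unadjusted p below 0.05. Their median log2 fold change was 0.01, beside 0.00 for all genes tested, with 26 above 0 and 21 below. The kinases, ubiquitin ligases and scaffolds that act on the Gli proteins were 20 tested genes, with 0 called or at an unadjusted p below 0.05 and log2 fold changes between −0.21 and 0.15. Of 15 regulators of Smoothened 0 were called or at an unadjusted p below 0.05 as well, with a median of −0.0055. Of the genes of the primary cilium, the organelle in which the signal is relayed, 0 of 38 were called in edgeR (0 also in limma-voom and DESeq2) and 7 had an unadjusted p below 0.05, beside 0.673% and 11.5% of all genes tested. Among these 38 genes 30 were below 0 and 8 above, beside 10840 and 10841 of all genes tested, with a median of −0.10 and a range from −0.39 to 0.13. The 3 with the smallest p were *Cc2d2a*, a gene of the transition zone at the base of the cilium (45.7 to 53.4 CPM in WT and 34.9 to 41.8 in KO, adjusted p = 0.179 from edgeR), and the intraflagellar transport genes *Ift46* (55.0 to 76.0 CPM over all libraries, adjusted p = 0.338) and *Wdr19* (9.99 to 17.2 CPM, adjusted p = 0.338).

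**Figure D4:**
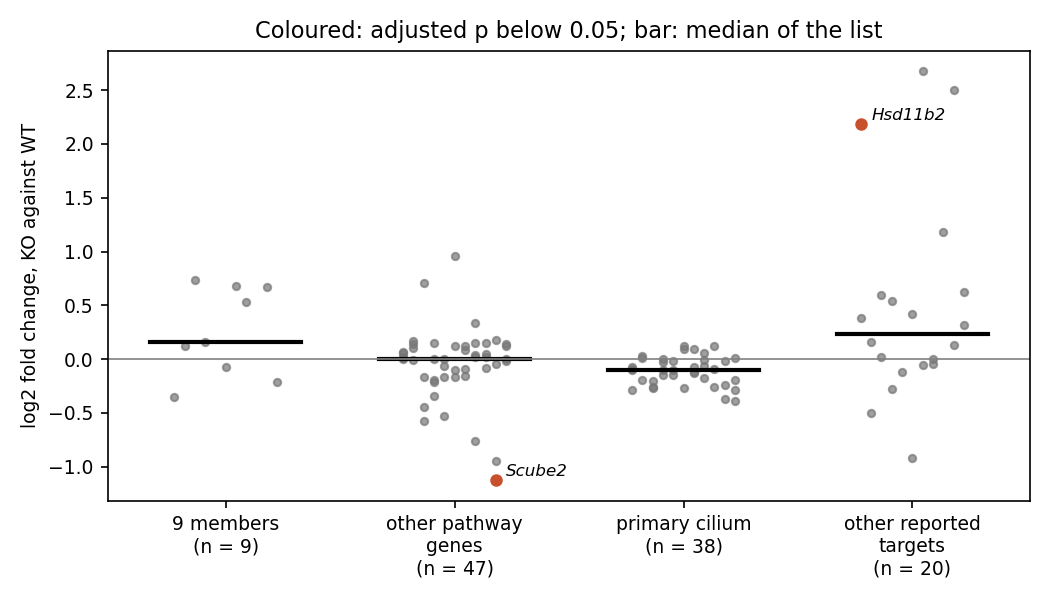
Log2 fold change of KO against WT (y axis) for each tested gene of the 9 members and of the lists of other pathway genes, primary cilium genes and other reported targets (x axis, number tested in brackets), with a bar at the median of the list. Coloured points had an adjusted p below 0.05: *Scube2* and *Hsd11b2*.

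Among 20 tested genes that have been reported as targets of the pathway in one tissue or another, 1 was called, *Hsd11b2*, higher in KO, beside 0.461% of all genes tested. *Hsd11b2* encodes the enzyme that inactivates glucocorticoids and has been described as a Hedgehog target in other cells. It had 11, 24 and 10 counts in the WT libraries and 59, 43 and 100 counts in the KO libraries, or 0.505, 1.1 and 0.441 CPM and 2.51, 2.02 and 4.84 CPM. No KO library fell within the WT range. *Hsd11b2* rose by 2.19 on the log2 scale (SE 0.43, 95% interval 1.25 to 3.12, adjusted p = 0.0453 from edgeR), and the call was lost in limma-voom (0.143), with library sizes alone (0.0561), with a minimum of 10 counts per library (0.133), and without WT c (0.381), KO a (0.290) or KO c (0.192). *Foxe1*, a forkhead factor gene of the HF, had 0.275, 0.779 and 0.220 CPM in WT and 2.93, 0.610 and 3.72 CPM in KO. Its groups overlapped because KO b lay below WT b, and it was not called (2.50, SE 0.63, adjusted p = 0.106 from edgeR, but 0.0120 in DESeq2 and 0.0150 in edgeR without KO b). Of the 20 genes 14 were above 0 and 6 below, with a median log2 fold change of 0.24, or 0.32 without the 3 genes at or under the floor in all libraries. At an unadjusted p below 0.05 were 5 of the 20, all higher in KO, beside 11.5% of all genes tested in either direction. Besides the genes above these were the transcription factor gene *Mycn*, the cyclin gene *Ccnd1* and the survival gene *Bcl2*, the last 2 named after their values were seen, with log2 fold changes of 0.62, 0.54 and 0.38 and adjusted p of 0.203, 0.271 and 0.429 from edgeR. These genes also respond to many other signals.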

How the data were processed

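RNA was measured in 6 libraries, 3 per genotype. Libraries were strand-specific and made from polyadenylated RNA. The authors aligned single reads of 65 bases to GRCm38 and counted uniquely mapped reads on the sense strand. The submitters' processing notes name TopHat2 2.1.0, Bowtie 1.1 and HTSeq. The deposited values are raw counts per gene, without normalization. No member overlapped exons of another gene on the same strand.

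The members and lists were chosen with earlier results of these data known. Genes with a count above 0 in any library (21681) were tested with edgeR 4.0.16 (TMM, glmQLFit, glmQLFTest, R 4.3.3), with Benjamini-Hochberg adjustment. Alternatives were limma-voom (limma 3.58.1), DESeq2 1.42.0, library sizes alone, upper-quartile factors, filterByExpr, at least 10 counts in every library, and omission of each library. Exon lengths came from the reference annotation of GRCm38. Exact two-sided permutation tests compared single genes. A gene that the lists would hold is not reported here. Named genes were the 9 members, other ligand and receptor genes, called genes of the lists and the 3 with the smallest p per list, and defining or most abundant markers of other cell types. *Ccnd1*, *Bcl2*, *Foxc2*, *Sox9* and markers singled out for their values were named after these were seen. The code was tested on simulated counts. All 6 columns were mapped, and no 2 libraries were copies (chi-square per degree of freedom of 10.8 or more). The cells came from 3 mice per genotype, so the spread between libraries is that between mice and of their processing. The exact Poisson intervals and the floor cover counting error only. The 95% intervals of the log2 fold changes come from edgeR's fit and include the spread between libraries.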

Additional observations from a re-analysis of the deposited data

How the results depend on the processing

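No paired analysis was possible because the numbers in the columns of the count table match no sample number of the labels. Of 126 alternative fits of the 9 genes, 124 kept the direction and stayed above the threshold, and 0 of the 9 were called in each alternative. Without WT c and KO c together, chosen after seeing the data, *Gli2* turned to −0.12, *Hhip* to −0.092 and *Dhh* to −0.00173 (log2 fold change). *Gpc4*, near 0 throughout, turned to −0.0090 with upper-quartile factors and −0.12 without WT c and KO c. With single libraries left out, *Gpc4* ranged from −0.067 (without WT c) to 0.054, *Gpc6* from −0.0052 (without WT b) to 0.23, *Gli2* from 0.0025 to 0.30, *Hhip* from 0.19 to 1.01 and *Dhh* from 0.041 to 0.81. The cause was not tested.

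In the pathway, cilium and target lists together 2 of 105 tested genes were called, beside 146 of 21681 (0.673%) over all genes. In limma-voom 0 were called, with TMM or with library sizes alone, against 4 in DESeq2 and 1 in edgeR with library sizes alone. After filterByExpr 0 of 96 were called, and under a minimum of 10 counts per library 0 of 95. Leaving out single libraries gave 0 to 7. The 7 of 105 came without WT a, where 521 of 21387 were called over all genes. Without WT c and KO c 0 list genes were called. Over all genes 146 were called, against 24 and 28 in limma-voom with TMM and with library sizes alone, 546 in DESeq2, 15 with filterByExpr, 12 with at least 10 counts in every library, 5 to 521 with single libraries left out, and 2 without WT c and KO c. The last fits have fewer samples. By CPM, and likewise on a log2 scale, 4 of 9 genes in WT and 7 of 9 in KO kept the rank they had per kilobase. Depth limits *Shh*, *Hhip*, *Ihh*, *Dhh*, *Hsd11b2* and *Foxe1*, which rest on 1 to 100 counts per library.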
